A study of Mus musculus with 6 samples.

Results

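The genes described here code for the Eph receptors and their ephrin ligands, the netrins with their receptors DCC, neogenin and UNC5, the Slit ligands with their Robo receptors, and the repulsive guidance molecules. They were chosen by symbol from the probe sets whose annotation names 1 gene, and the brightest probe set was kept for each gene. Of 43 gene names of these families in RefSeq, 40 were measured in this way among 22180 genes tested. Ntn5 and Rgma were covered by probe sets that name several genes, Ephb2 was named by no probe set, and these 3 were not analysed here. The 40 comprised 9 EphA and 4 EphB receptors, 5 ephrin-A and 3 ephrin-B ligands, 3 netrins with draxin, 6 receptors of the DCC, neogenin and UNC5 type, 2 netrin-G proteins, 3 Slits, 3 Robos and Rgmb.

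The study compared 3 cultures with knockdown of Diras2, a small GTPase of the Ras family, with 3 cultures that received a scrambled control. All 6 were primary hippocampal cells of mouse embryos at day 18, infected with AAV1/2, an adeno-associated viral vector, 7 days after seeding and harvested 7 days after that. One knockdown construct and one scrambled construct are named, so an effect of the loss of Diras2 cannot be told apart from another effect of that construct, and neither the strain nor the promoter of the vector is given in the sources used here. Each culture was read on 1 Affymetrix array, and although the labels speak of biological replicates, no separate litters or preparations are named, so the p-values reflect only the spread among these 6 arrays, some of which may be technical.

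Eph receptors are tyrosine kinases of the cell surface, and ephrins are membrane-bound ligands, so both signal only where cells touch, and each side can pass a signal into its own cell. Netrins are secreted cues that attract through DCC or neogenin and repel through UNC5 receptors, and Slits are secreted repellents that act on Robo receptors. In the hippocampus these families guide the entering and leaving axons, set up lamina-specific inputs, and later take part in the shaping of dendritic spines and synapses.

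Of the 40 guidance genes, 2 rose and 3 fell when Diras2 was knocked down, while 35 stayed short of the threshold (limma, called at an adjusted p under 0.05 over all genes). Epha3, Neo1 and Ephb6 were lower in the knockdown, and Epha8 and Unc5c were higher. That is 12.5% of the family members, against 7.80% of all genes tested, of which 4.17% rose and 3.64% fell. All 5 called genes lay among the 33 members whose mean was at or above the median level of all genes tested, a share of 15.2%, against 14.6% of all genes at or above that level. The share of guidance genes that changed was therefore near the background of genes at that level. The median log2 difference of the 40, knockdown minus control, was -0.07, against 0.00 for all genes, with 17 members above 0 and 23 below.

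The 5 genes called are shown by the sequence just upstream of their transcription start, since they carry the comparison. Each line gives the 250 bases before the start in the RefSeq annotation of build GRCm38.p6, written 5' to 3' on the strand of the gene. Capitals mark each match to GGGCGG on either strand, the GC box known as a binding motif of Sp factors.
Epha3, chr16:63864176-63864425, minus strand: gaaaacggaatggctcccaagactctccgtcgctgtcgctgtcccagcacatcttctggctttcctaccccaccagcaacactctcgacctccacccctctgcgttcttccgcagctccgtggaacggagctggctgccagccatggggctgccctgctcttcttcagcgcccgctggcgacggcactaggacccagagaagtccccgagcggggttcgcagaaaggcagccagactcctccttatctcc
Neo1, chr9:59036442-59036691, minus strand: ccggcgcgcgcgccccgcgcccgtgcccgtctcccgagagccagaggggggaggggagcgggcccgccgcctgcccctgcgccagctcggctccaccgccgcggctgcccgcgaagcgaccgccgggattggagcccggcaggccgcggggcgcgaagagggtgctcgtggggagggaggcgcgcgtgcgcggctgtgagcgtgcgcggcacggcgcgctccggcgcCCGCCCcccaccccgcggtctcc
Ephb6, chr6:41605261-41605510, plus strand: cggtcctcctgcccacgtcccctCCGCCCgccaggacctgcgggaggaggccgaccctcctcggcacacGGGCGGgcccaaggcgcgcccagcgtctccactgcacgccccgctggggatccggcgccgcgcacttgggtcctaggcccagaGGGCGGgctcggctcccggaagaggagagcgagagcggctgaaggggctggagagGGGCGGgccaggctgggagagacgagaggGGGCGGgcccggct
Epha8, chr4:136956817-136957066, minus strand: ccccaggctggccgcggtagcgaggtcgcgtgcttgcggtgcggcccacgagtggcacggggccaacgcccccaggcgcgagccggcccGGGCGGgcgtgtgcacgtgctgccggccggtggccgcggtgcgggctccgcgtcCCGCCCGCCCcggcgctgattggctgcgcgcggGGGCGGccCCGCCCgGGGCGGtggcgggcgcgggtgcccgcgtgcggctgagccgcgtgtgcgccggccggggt
Unc5c, chr3:141465314-141465563, plus strand: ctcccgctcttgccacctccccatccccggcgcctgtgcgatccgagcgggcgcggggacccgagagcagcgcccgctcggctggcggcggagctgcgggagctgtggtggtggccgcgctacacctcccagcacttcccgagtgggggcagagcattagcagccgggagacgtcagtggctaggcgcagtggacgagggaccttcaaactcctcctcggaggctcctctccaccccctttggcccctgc
The windows of Epha8 and Ephb6 held 6 and 5 matches, and that of Neo1 held 1. Epha3 and Unc5c had none in this window, so the genes that fell and the genes that rose each included windows with and without the motif. Of the 40 genes, 35 had such a window, and 26 of these, or 74.3%, held at least 1 GC box, against 43.2% of 16990 genes tested with a window. The median G and C content of the windows was 64.8% for the guidance genes and 55.6% for all, and neither difference was tested. The cyclic AMP response element TGACGTCA was found in 1 member window, or 2.9%, against 2.1% of all, and the E-box CACGTG in 2, or 5.7%, against 6.9%. The AP-1 motif TGANTCA occurred in 0 of the 35 windows, against 6.5% of all, and TATAAA in 3, or 8.6%, against 11.9%. All motifs were searched on both strands, and a match describes the letters only.

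The knockdown itself was checked in Diras2. Diras2 had log2 levels of 7.17, 6.23 and 6.08 in the knockdown arrays, against 10.17, 10.17 and 9.76 in the controls. The groups lay far apart, with a log2 difference of -3.54 (SE 0.27), 11.6-fold lower, at an adjusted p of 0.000630 (limma). An exact two-sided permutation test of Diras2 alone gave p = 0.1, the smallest that 3 against 3 arrays allow. Markers of neurons averaged log2 levels of 11.15 to 11.42 in the knockdown arrays and 11.24 to 11.57 in the controls. Those of astrocytes averaged 8.51 to 8.99 and 8.92 to 9.06, and those of fibroblasts and meninges 5.76 to 6.14 and 5.64 to 6.10. The means of single microglial and endothelial markers over all arrays were at most 5.45 and 5.72. Single astrocyte and fibroblast markers reached 10.53 and 8.92. Array correlations across genes were 0.981 to 0.995. RNA integrity was scored 9, 9.3 and 9.2 for the knockdown cultures, against 9.2, 9 and 8.8 for the control cultures.

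Among the EphA receptors, which mainly bind ephrin-A ligands, Epha3 gave the clearest difference. Epha3 had log2 levels of 6.13, 5.97 and 5.96 in the knockdown arrays, against 7.15, 7.30 and 7.04 in the controls. The groups did not overlap, and the distance between them was many times the spread within either. It fell by 1.14 on the log2 scale (SE 0.11, 95% interval -1.40 to -0.89), 2.21-fold lower, at an adjusted p of 0.00124 by limma. In bulk RNA, fewer cells that express the gene and less of its RNA per cell cannot be told apart. Epha3 was the 1 member of the 40 with a difference beyond 2-fold. Its call held under every alternative tried, with adjusted p from 0.00303 to 0.0111 when each array was left out in turn.

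Epha8, an EphA receptor known from the developing visual midbrain, moved the other way. Its log2 levels were 6.19, 5.85 and 6.22 in the knockdown arrays, against 5.47, 5.50 and 5.13 in the controls. Every knockdown array lay above every control. Epha8 rose by 0.72 (SE 0.15), 1.65-fold, at an adjusted p of 0.0235 by limma, and 0.0273 with the replicate block. Leaving out replicate 1 or 3 of the knockdown, or replicate 2 or 3 of the control, ended the call (adjusted p 0.0535 to 0.0936), as did RNA integrity as a covariate (0.103).

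The other 7 EphA receptors did not pass. Epha4, which binds ephrins of both classes and restrains spines at the contact with astrocytes, averaged 10.36 ± 0.36 in the knockdown and 10.13 ± 0.50 in the control (SD, n = 3), and the 95% interval of its log2 difference ran from -0.39 to 0.83. Epha5 and Epha7, both known from hippocampal axon mapping, had log2 differences of 0.01 (95% interval -0.43 to 0.45) and -0.15 (-0.52 to 0.22). These intervals leave out a 2-fold change either way for all 3 receptors. Epha6 stood at 8.91, 8.46 and 8.27 in the knockdown arrays, against 8.52, 8.15 and 7.35 in the controls, and its interval of -0.13 to 1.21 did not leave out a 2-fold rise, while that with the replicate block, 0.21 to 0.87, did (adjusted p 0.0547). The control of replicate 3 was the lowest array, and the groups overlapped. Epha10, a receptor without an active kinase, had a log2 difference of 0.20, and Epha1 and Epha2, mostly known from epithelia, of -0.05 and 0.00 at means under the median level of all genes, where RMA compresses differences.

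Of the EphB receptors, which mainly bind ephrin-B ligands and act at excitatory synapses, 1 of 4 measured passed. Ephb6, whose kinase domain is inactive, had log2 levels of 6.84, 6.58 and 6.81 in the knockdown arrays, against 7.24, 7.09 and 7.27 in the controls. The groups did not overlap, and the gap between the nearest arrays was small. Ephb6 fell by 0.46 (SE 0.11), 1.37-fold lower, at an adjusted p of 0.0462 by limma, and this call was lost without any 1 of the 6 arrays (0.0689 to 0.153), with median centring (0.0693) and with RNA integrity as a covariate (0.182). With the replicate block it was 0.0254. Ephb1, a receptor with a known part in axon crossing at the optic chiasm, averaged 7.21 ± 0.19 in the knockdown and 6.87 ± 0.13 in the control (SD, n = 3), and Ephb3 5.77 ± 0.05 and 6.01 ± 0.06. Both had groups that did not overlap and neither passed (adjusted p 0.174 and 0.193 by limma). Ephb4, known from the walls of veins, averaged 4.66 ± 0.04 in the knockdown and 4.53 ± 0.13 in the control, under the median level of all genes (adjusted p 0.575 by limma). A second, dim probe set of Ephb1 had a log2 difference of 0.05, where the main one had 0.34.

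None of the 8 ephrins passed in the fit without a block. The counts were 0 of 8 by limma, 1 of 8 at an unadjusted p under 0.05, and 2 of 8 with the replicate block. Of all genes 7.80% were called without the block and 11.7% with it, and the share at an unadjusted p under 0.05 was not counted. A count of 0 among 8 genes therefore does not set the ephrins apart. Efnb2, the ephrin-B ligand that acts in vessel formation and at synapses, came nearest. It had log2 levels of 8.79, 9.16 and 9.29 in the knockdown arrays, against 9.34, 9.93 and 9.96 in the controls. The groups did not overlap, but the highest knockdown array lay just under the lowest control. The log2 difference was -0.66 (SE 0.20) with an adjusted p of 0.0880 by limma, and 0.00851 with the replicate block (SE 0.10). Replicate 1 was the lowest array in both groups, and without control replicate 1 alone the adjusted p was 0.0216. Efna2, an ephrin-A ligand of graded expression in topographic maps, had 8.30, 8.02 and 7.85 in the knockdown arrays, against 7.92, 7.69 and 7.13 in the controls. The groups overlapped, while each knockdown array lay above the control of its own number. Its log2 difference of 0.48 had an adjusted p of 0.240 by limma, and of 0.0428 with the replicate block.

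Efnb3, a ligand that stops axons at the midline, had 8.85, 8.69 and 8.66 in the knockdown arrays, against 9.64, 9.41 and 8.62 in the controls. Control replicate 3 lay with the knockdown arrays and apart from the other controls. The log2 difference of -0.49 did not pass (adjusted p 0.294 by limma), and without that array it was -0.79 with an adjusted p of 0.0143, while leaving out any other array gave 0.351 to 0.557. Efnb1 averaged 7.95 ± 0.04 in the knockdown and 7.74 ± 0.09 in the control (SD, n = 3), groups that did not overlap, with an adjusted p of 0.250. Efna1, Efna3, Efna4 and Efna5 had log2 differences between -0.16 and 0.01 and overlapping groups. Efna1, Efna3 and Efna4 lie next to each other on chromosome 3 with no other protein-coding gene between them in RefSeq, and none of these 3 passed (adjusted p 0.562 to 0.992).

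**Figure D1:**
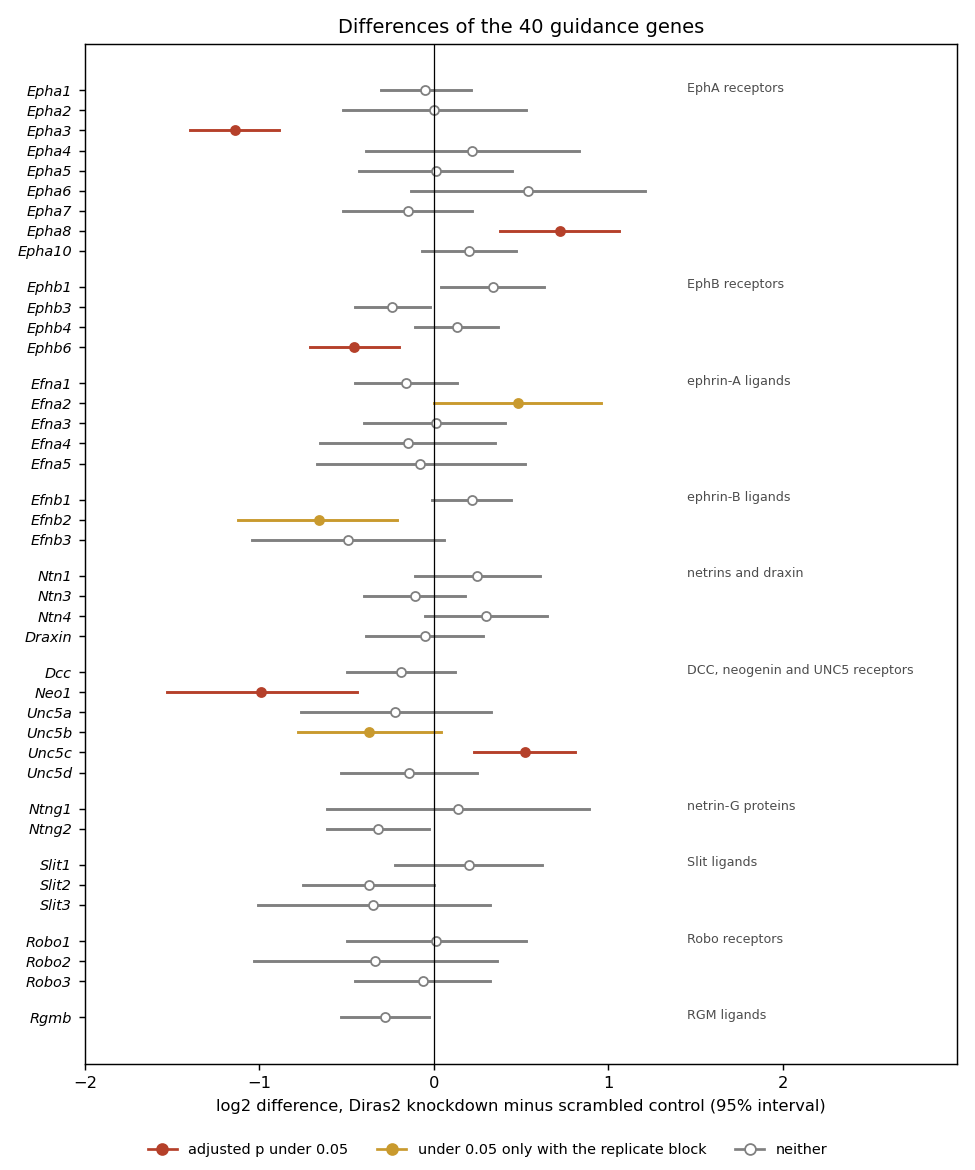
Log2 difference of each of the 40 guidance genes, knockdown minus control, with its 95% interval from limma, by family. Red genes had an adjusted p under 0.05, gold genes only with the replicate block, and open grey genes in neither fit; Epha3 lies farthest to the left at -1.14 and Epha8 farthest to the right at 0.72.

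Among netrin receptors, Neo1 and Unc5c passed in opposite directions. Neo1 codes for neogenin, which binds netrins and repulsive guidance molecules and also serves as a co-receptor in BMP signalling. Its log2 levels were 9.70, 8.91 and 9.19 in the knockdown arrays, against 10.59, 10.30 and 9.87 in the controls. The groups did not overlap, although both were widely spread. Neo1 fell by 0.99 (SE 0.24, 95% interval -1.53 to -0.44), 1.98-fold lower, at an adjusted p of 0.0425 by limma, and 0.00914 with the replicate block, where each knockdown array is set against the control of its own number (-0.89, -1.39 and -0.68). The call was lost without replicate 2 or 3 of the knockdown or replicate 1 or 2 of the control (adjusted p 0.0921 to 0.147), with median centring (0.0568) and with RNA integrity as a covariate (0.128).

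Unc5c, a receptor for repulsion from netrin that is needed for the development of the cerebellum, had log2 levels of 8.12, 7.87 and 8.17 in the knockdown arrays, against 7.37, 7.56 and 7.68 in the controls. Every knockdown array lay above every control. Unc5c rose by 0.52 (SE 0.13), 1.43-fold, at an adjusted p of 0.0457 by limma, and 0.0349 with the replicate block. Leaving out any array other than control replicate 3 ended the call (adjusted p 0.0612 to 0.152), as did quantile normalisation (0.0599). Unc5b, known as a repulsive receptor of vessel tip cells, had 6.04, 6.20 and 6.60 in the knockdown arrays, against 6.44, 6.57 and 6.94 in the controls. The groups overlapped, yet the same-numbered pairs differed by nearly equal steps of -0.40, -0.37 and -0.34. The adjusted p of Unc5b was 0.296 by limma, and 0.0476 with the replicate block.

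Dcc, the receptor that mediates attraction to netrin-1, averaged 9.08 ± 0.24 in the knockdown and 9.27 ± 0.10 in the control (SD, n = 3), and the 95% interval of its log2 difference, -0.50 to 0.12, left out a 1.5-fold change. Dcc and Neo1 are close relatives, and whether their differences differ from each other was not tested. Unc5a had 9.34, 9.04 and 9.18 in the knockdown arrays, against 9.87, 9.50 and 8.84 in the controls, and here too control replicate 3 lay apart from the other controls. Unc5d, a receptor that also binds FLRT proteins, had a log2 difference of -0.14 (95% interval -0.53 to 0.25). The secreted ligands did not pass. Ntn1, the founding netrin, averaged 5.23 ± 0.18 in the knockdown and 4.99 ± 0.26 in the control, and Ntn3, Ntn4 and Draxin, an antagonist of netrin signalling, had log2 differences of -0.11, 0.30 and -0.05.

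Rgmb, a membrane-anchored ligand of neogenin, had log2 levels of 9.75, 9.79 and 9.70 in the knockdown arrays, against 9.90, 9.98 and 10.19 in the controls. The groups did not overlap, and the difference of -0.28 was small (adjusted p 0.189 by limma). Of the netrin-G proteins, which are tethered to axons and bind partners on dendrites, Ntng2 had 6.10, 6.43 and 6.39 in the knockdown arrays, against 6.49, 6.73 and 6.66 in the controls, a log2 difference of -0.32 with an adjusted p of 0.187. Ntng1 averaged 4.50 ± 0.62 and 4.36 ± 0.46, under the median level of all genes.

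**Figure D2:**
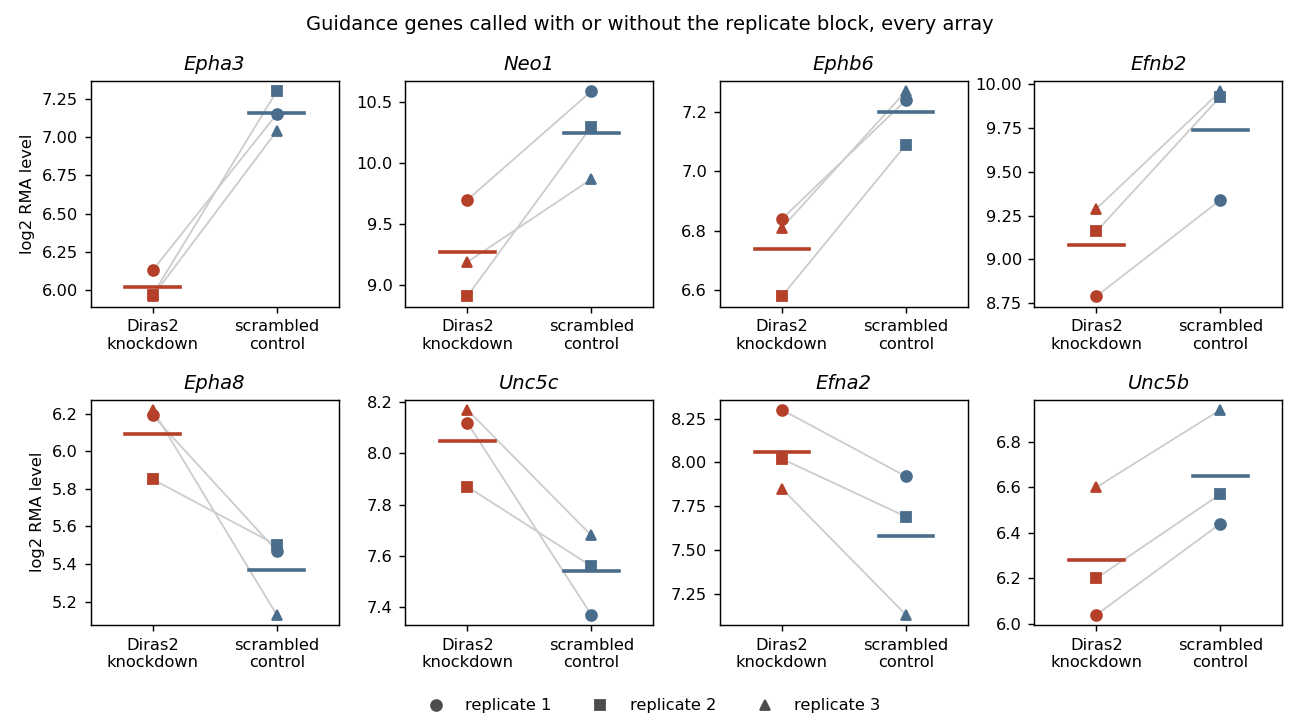
Log2 RMA level of the 8 guidance genes called with or without the replicate block, in each of the 3 knockdown arrays (left in each panel) and 3 control arrays (right); bars are group means, and grey lines join arrays of the same replicate number. The panels have separate axes; the groups overlap for Efna2 and Unc5b and not for the other 6 genes.

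No Slit or Robo gene passed. The counts were 0 of 6 by limma, 0 of 6 also at an unadjusted p under 0.05, and 0 of 6 with the replicate block. With 7.80% of all genes called without the block and 11.7% with it, a count of 0 among 6 does not set these genes apart. Slit2 had log2 levels of 8.60, 8.15 and 8.75 in the knockdown arrays, against 8.87, 8.74 and 9.01 in the controls, with a log2 difference of -0.37 (95% interval -0.75 to 0.00, adjusted p 0.242). The groups overlapped by a single array. Slit3 averaged 8.35 ± 0.42 in the knockdown and 8.70 ± 0.54 in the control, and Slit1 8.57 ± 0.19 and 8.37 ± 0.34 (SD, n = 3). Robo1, the main Slit receptor of many commissural axons, averaged 9.28 ± 0.40 in the knockdown and 9.27 ± 0.31 in the control, with an interval of -0.50 to 0.53. Robo2, its neighbour on chromosome 16, had 8.36, 9.13 and 9.38 in the knockdown arrays, against 8.75, 9.52 and 9.61 in the controls. Arrays of replicate 1 were lowest in both groups, and the spread within groups was wider than the difference of -0.34. Robo3, which modulates midline crossing, had means of 3.10 and 3.17, under the median level of all genes.

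Slit2 and Slit3 also host the precursors of miR-218, a microRNA known to target Robo1, and RefSeq places Mir218-1 and Mir218-2 inside their spans. Both precursors give the same mature strand, shown here with its seed, bases 2 to 8, in capitals.
mmu-miR-218-5p: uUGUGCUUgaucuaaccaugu
The probe set of Mir218-1 averaged 3.83 ± 0.29 in the knockdown and 3.69 ± 0.34 in the control, and that of Mir218-2 3.92 ± 0.09 and 3.78 ± 0.23 (SD, n = 3). Neither passed (adjusted p 0.776 and 0.636 by limma), both were under the median level of all genes, and whether they read the mature microRNA was not tested.

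By role, the 5 called genes were all receptors, 5 of 22 receptors against 0 of 16 secreted or membrane ligands, of which 2 had an unadjusted p under 0.05 by limma. The 5 receptors are 22.7% of the 22. With the replicate block the counts were 6 of 22 receptors, or 27.3%, and 2 of 16 ligands, or 12.5%. The 2 netrin-G proteins were counted in neither role, and neither was called in either fit. The shares over all genes were 7.80% without the block and 11.7% with it, and 18 of the receptors and 14 of the ligands lay at or above the median level. Of all genes at or above that level, 14.6% were called without the block and 21.2% with it. The difference between the roles was not tested. Of the 35 genes that did not pass, 30 had a 95% interval inside 2-fold either way and 17 inside 1.5-fold. The 5 whose interval reached past 2-fold were Epha6, Efnb2, Efnb3, Slit3 and Robo2, in the fit without a block. With the replicate block 0 of the 35 had an interval past 2-fold, those of these 5 being 0.21 to 0.87, -0.90 to -0.43, -0.90 to -0.08, -0.61 to -0.09 and -0.56 to -0.11 on the log2 scale. Groups did not overlap for 11 of the 40 genes, or 27.5%, against 25.5% of all genes tested. Of these, 4 lay above the controls and 7 below, against 13.4% and 12.1% of all genes in the same 2 directions.

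Arrays of replicates 1 and 3 varied with the array of the same number, and those of replicate 2 less so. Deviations from the group means correlated across the 40 genes at 0.81, 0.25 and 0.60 for the 3 same-numbered pairs of arrays, against 0.43, 0.12 and 0.37 across all genes. For the 6 pairs of unlike number the values ran from -0.68 to 0.32 across the members and from -0.38 to 0.06 across all genes. The deviations of each group sum to 0, so positive values for same-numbered pairs force negative ones elsewhere. The contrast between the 2 kinds of pair is thus partly built in, and the same-numbered values are not independent of each other. Across the members, the deviations of knockdown replicate 2 correlated more with control replicate 3 (0.32) than with control replicate 2 (0.25), while across all genes it was nearest to its own number. These are correlations across genes, which are not independent replicates and share the arrays. The array of the highest level had the same number in both groups for 23 of 40 members, or 57.5%, against 43.6% of all genes. Replicate 1 was highest in both groups for, among others, the called gene Neo1 and Epha4, Epha5, Epha6, Efna2, Efna3 and Slit3. It was lowest in both for, among others, Robo2 and Efnb2. The median standard error of the members was 0.16 without the block and 0.11 with it, against 0.12 and 0.11 for all genes.

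With the replicate number as a block, 3 of the 40 rose and 5 fell, which adds Efna2 to the genes that rose and Efnb2 and Unc5b to those that fell. That is 20.0% of the members, against 11.7% of all genes in the same fit, of which 6.05% rose and 5.64% fell. Among genes at or above the median level it was 24.2% of the members, against 21.2% of all genes. All 5 genes called without the block kept their calls and directions with it. The 3 same-numbered pairs had the same sign for 21 of the 40 genes, or 52.5%, against 44.9% of all genes, with 9 higher in each pair and 12 lower.

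**Figure D3:**
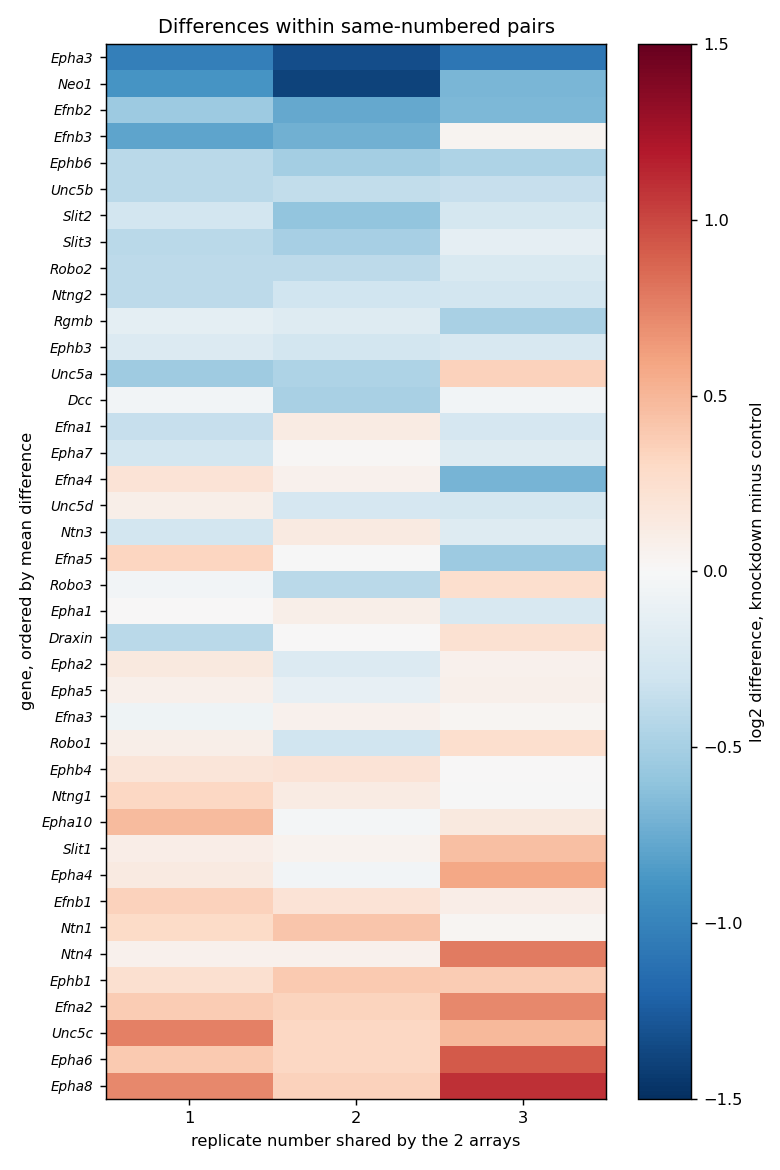
Log2 difference, knockdown minus control, between arrays of the same replicate number (columns 1, 2 and 3) for the 40 guidance genes, ordered from the lowest mean difference at the top. Blue is lower and red higher in the knockdown; Epha3 is blue in each pair (-1.02, -1.33 and -1.08), Epha8 is red in each (0.72, 0.35 and 1.09), and Efnb3 and Unc5a change sign in the third.

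The calls other than that of Epha3 depended on single arrays. Called members numbered 1 without knockdown replicate 3 or control replicate 2, 2 without knockdown replicate 1 or knockdown replicate 2, 3 without control replicate 1 and 4 without control replicate 3, of which 1, 1, 2, 2, 2 and 3 were among the 5 called with all arrays. The share called over all genes was lower in these fits too, at 3.11% to 6.70%, against 7.80% with all arrays. With RNA integrity as a covariate 2 members were called, Epha3 lower and Unc5c higher, and 3.42% of all genes.

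**Figure D4:**
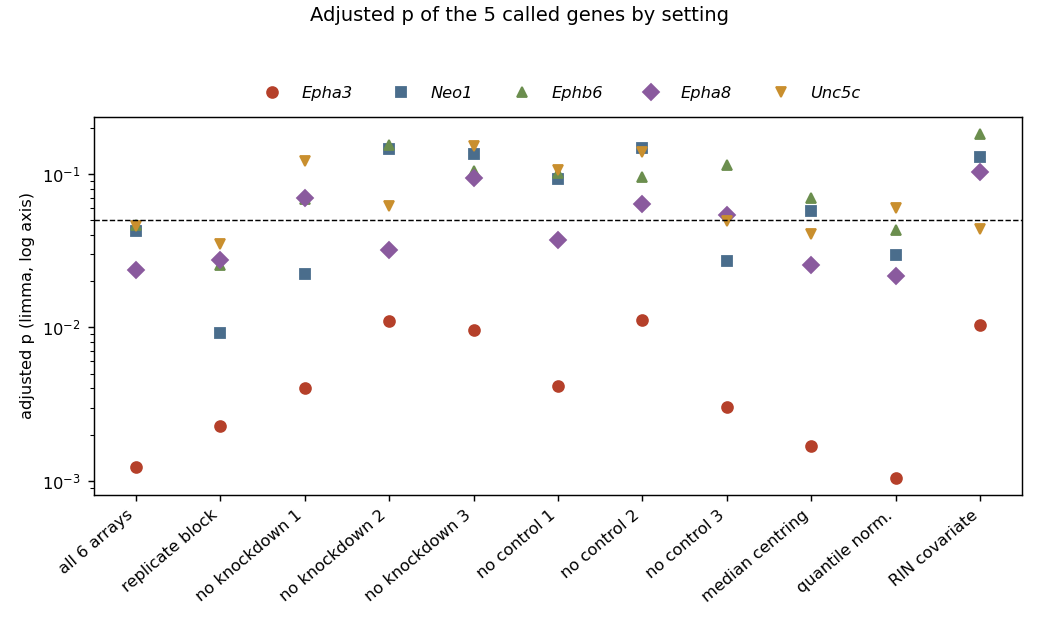
Adjusted p by limma (log axis) of the 5 called guidance genes with all 6 arrays and under 10 alternatives, with the threshold of 0.05 as a dashed line. Epha3 stays under the line throughout, at 0.0111 or less, while Neo1, Ephb6, Epha8 and Unc5c each cross it under several alternatives.

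Signalling partners of these families were read from the same fit, in 4 lists drawn up from textbook knowledge. The lists were chosen with earlier results of these data known, so their shares are no independent support. Of 91 measured partners 6 rose and 3 fell, together 9.89%, against 7.80% of all genes, and their median log2 difference was -0.08. Of these, 83 lay at or above the median level of all genes and held all 9 calls, a share of 10.8%, against 14.6% of all genes at or above that level. With the replicate block 10 rose and 8 fell, or 21.7% of those 83, against 21.2% of all genes at that level. The highest count was in the longest list, that of Eph and ephrin partners, where 4 of 34 rose and 1 fell. That is 14.7%, against 7.80% of all genes and 14.6% of those at or above the median level. The netrin, Slit and RGM lists had 4.17%, 9.09% and 9.09%. With the replicate block 7 rose and 3 fell in the Eph and ephrin list. Grb10, an adaptor that can bind activated receptor tyrosine kinases, stood at 8.63, 8.66 and 8.83 in the knockdown arrays, against 6.40, 6.34 and 7.07 in the controls, a rise of 2.10 on the log2 scale with an adjusted p of 0.00101 by limma. Rasa1, a Ras GTPase-activating protein recruited by Eph receptors, rose by 0.56 (adjusted p 0.0175), Stat3, a transcription factor, by 0.67 (0.0176) and Chn1, a Rac GTPase-activating protein downstream of EphA4, by 0.93 (0.0279). Yes1, a Src-family kinase, fell by 0.79 (0.0283).

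Of 24 netrin, DCC and UNC5 partners 1 fell and 0 rose. It was Flrt2, a repulsive ligand of UNC5 receptors, with 7.02, 7.58 and 7.41 in the knockdown arrays, against 8.48, 8.85 and 8.57 in the controls, a drop of 1.30 (adjusted p 0.00347 by limma). Ablim1, an actin-binding protein, and Dscam, a netrin-binding adhesion molecule, stayed short of the threshold at -0.45 and -0.40 (0.0695 and 0.0788). With the replicate block Ablim1 was called lower (0.0324) and Dscam was not (0.0510). Of 22 Slit and Robo partners, Srgap3, a GTPase-activating protein that binds Robo, fell by 0.83 (0.0242), and Sdc2, a heparan sulphate proteoglycan whose Drosophila relative Syndecan aids Slit signalling, rose by 2.28 (0.000213). Sdc4 did not pass at -0.46 (0.0634), and was called lower with the replicate block (0.0495), in which 2 of the 22 rose and 3 fell.

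Of 11 RGM and neogenin partners 1 rose, Acvr2a, a type II receptor for activins and BMPs, by 0.91 (adjusted p 0.0288 by limma). Adam17 and Bmpr1b stayed short of it at -0.56 and -0.47 (0.130 and 0.146).

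**Figure D5:**
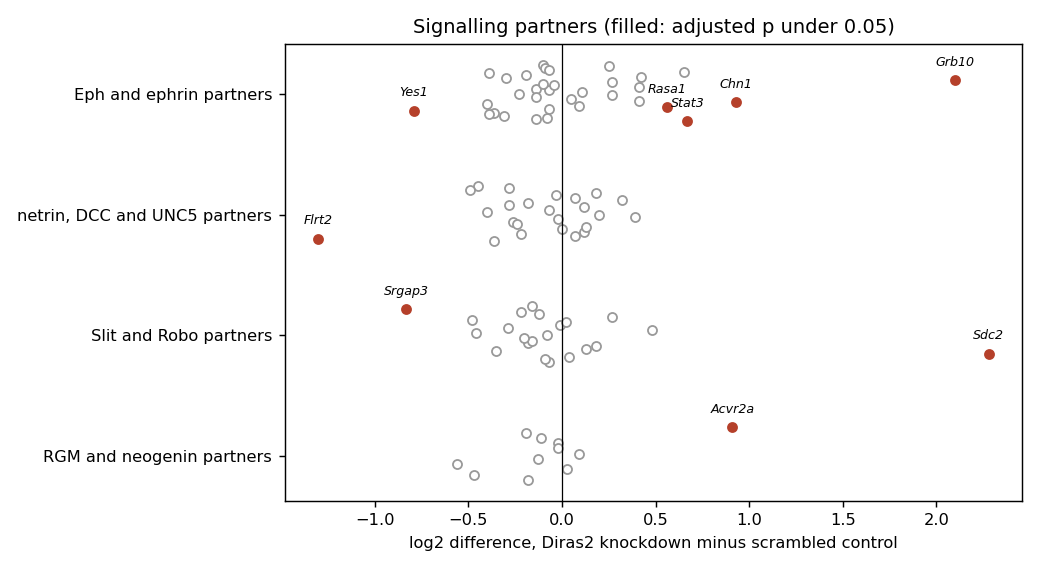
Log2 difference, knockdown minus control, of each measured signalling partner in 4 lists (rows); filled red points had an adjusted p under 0.05 and are named, open points did not, and the height within a row has no meaning. The named points run from Flrt2 at -1.30 to Sdc2 at 2.28.

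Markers of other cell types moved in part with the groups. All 3 measured markers of dividing cells rose, with a mean log2 level per array of 5.0 to 6.02 in the knockdown and 4.20 to 4.45 in the controls. Of the oligodendrocyte lineage 1 of 6 rose, Pdgfra, by 2.80 (adjusted p 0.0104 by limma), while Cspg4, Olig1, Olig2, Sox10 and Mbp had log2 differences of -0.05, -0.19, 0.52, 0.23 and 0.12. The list mean, which includes Pdgfra, was 6.04 to 7.04 in the knockdown and 5.80 to 6.21 in the controls. Of the 6 general neuron markers 1 fell, Snap25, by 0.51 (adjusted p 0.0471 by limma). Tubb3, Stmn2, Rbfox3, Map2 and Syt1 had log2 differences of 0.39, 0.14, -0.02, -0.10 and -0.58. Every knockdown array of Tubb3 lay above every control, and it did not pass (adjusted p 0.106 by limma). Of 5 markers of excitatory hippocampal neurons 1 fell, Fezf2, by 0.52 (0.0435), while Slc17a7, Slc17a6, Neurod6 and Prox1 had 0.17, -0.08, 0.29 and 0.25. The excitatory list mean was 8.83 to 9.35 in the knockdown and 8.80 to 9.18 in the controls. Among inhibitory neuron markers 1 of 5 fell, Lhx6, with list means of 7.68 to 8.15 in the knockdown and 7.99 to 8.58 in the controls. With the replicate block Syt1 and Dlx2 were also called lower (0.0130 and 0.0442), which makes 2 of 6 general neuron markers and 2 of 5 inhibitory ones. Astrocyte, microglia, endothelial and fibroblast markers had 0 called of 6, 5, 5 and 5 by limma, against 7.80% of all genes. Of these 21 genes 4 had an unadjusted p under 0.05, and Gja1, Csf1r and Lum were called lower with the replicate block (adjusted p 0.0385, 0.0339 and 0.0442). The part of these shifts in the differences of Epha3, Neo1, Ephb6, Epha8 and Unc5c was not tested.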

How the data were processed

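Total RNA of 6 cultures was amplified by a whole-transcript method and read on Affymetrix arrays, per the labels' protocols. The authors deposited log2 values per probe set, and the submitters' processing notes name RMA and Affymetrix Expression Console 1.2.1.20. Since RMA forces the arrays onto a common distribution, a shift of most genes together could not be seen, and low levels are compressed. The number of arrays limits the precision.

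A platform annotation pairs 23521 of 41345 probe sets with 1 gene symbol, and 22180 genes were tested. The sources used here do not give the build behind the annotation, and promoter windows come from RefSeq, GRCm38.p6. Knockdown minus control was fitted on all genes by lmFit and eBayes of limma 3.58.1 in R 4.3.3, with no intensity trend and with Benjamini-Hochberg adjustment. The fit without a block was also run on simulated arrays that vary independently. That run does not cover the replicate block or arrays that vary together. Intervals are limma's 95% intervals, and SE is its moderated standard error. Samples were grouped by title. The main fit has no block, and it gave every value not said to come from another setting. Same-numbered arrays deviated together (r = 0.43, 0.12 and 0.37 across all genes, each above 0.1). A second fit, with the replicate number as a block, therefore treated arrays of one number as pairs, on the strength of the data and not the labels. Where the block changed the call of a named gene, its value stands beside that gene.

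The members and the lists of partners and markers were chosen with earlier results of these data known. All members are named, those called with every array, and from each partner list every called gene and the 3 of smallest p. The 2 miR-218 probe sets were added to these, and 1 further partner list is not reported here. Alternatives were left-out arrays, quantile or median scaling, leaving dim genes out, eBayes with a trend or robust, RNA integrity as a covariate, other summaries of probe sets and other thresholds. Figures were drawn with matplotlib 3.10.9.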

Additional observations from a re-analysis of the deposited data

How the results depend on the processing

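The direction of Diras2 and of the 8 guidance genes called with or without the replicate block held under every alternative run. Guidance genes higher in the knockdown numbered 2 with all arrays and 0 to 1 when each array was left out. They numbered 3 with the replicate block, and 1 with quantile normalisation, with RNA integrity as a covariate and at a minimum of 1.5-fold. Guidance genes lower in the knockdown numbered 3 with all arrays and 1 to 3 when each array was left out, 5 with the replicate block, and 1 with median centring and with RNA integrity as a covariate. Over all genes the share called was 7.80% with all arrays, 3.11% to 6.70% when each array was left out, 11.7% with the replicate block, 7.93% with quantile normalisation, 7.35% with median centring, 3.42% with RNA integrity as a covariate and 5.36% at a minimum of 1.5-fold. Partners higher numbered 6, and 2 to 6 with an array left out, 10 with the replicate block and 3 with RNA integrity as a covariate. Partners lower numbered 3, and 1 to 3 with an array left out, 8 with the replicate block and 1 with RNA integrity as a covariate. They numbered 9 at an adjusted p under 0.1, where 11.7% of all genes were called. They also numbered 9 when only genes at or above the median level were tested, where fewer genes enter the adjustment and 19.6% were called. Fits without an array have fewer samples, and for the other settings the cause was not tested. Further calls appeared without 1 array, Efnb2 without control replicate 1 and Efnb3 without control replicate 3. The filter on dim genes, the intensity trend, robust fitting and both other uses of the probe sets left the same 5 guidance genes called. With the filter 19.6% of the 11093 genes tested were called, where the same 5 are 15.2% of the 33 members left. In the other settings named here 7.58% to 8.43% of all genes were called. Members near the floor of the array, such as Robo3 and Epha1, may differ by more than their values show.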
